A study of Homo sapiens with 6 samples.

Results

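BLMH, the gene for bleomycin hydrolase, was described here together with 9 other genes of peptidases that trim or cut peptides in the cytosol, the endoplasmic reticulum, endosomes or lysosomes: NPEPPS, LAP3, ERAP1, ERAP2, LNPEP, THOP1, DPP3, TPP2 and TPP1. These 10 genes, of 20014 in the deposited table, were chosen by name: BLMH because it was among the genes that fell most in the comparison of STUB1 knockout with control cells, and the others because their products trim peptides. That comparison was therefore used in the choice, so the levels of the 10 genes are given as a description, without a test of their own.

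HaCaT, a line of immortalized human skin keratinocytes kept without special treatment, gave the 6 mRNA libraries, which were enriched with oligo(dT) beads. In 3 libraries the cells carried a STUB1 knockout, made with a lentiviral CRISPR vector and a guide against STUB1, and in the other 3 they were labelled wild type and had received a control guide in the same vector. STUB1, also called CHIP, is a ubiquitin ligase that works with the HSP70 and HSP90 chaperones, and the series title places it upstream of the ectodysplasin receptor EDAR and NF-kB. Colonies grown from sorted cells were screened for STUB1 protein by immunoblot. The labels do not say if libraries sharing a genotype are separate clones or cultures, so the variation behind each p-value is that among 3 libraries a group and could be technical.

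When the proteasome has cut a protein, it leaves short peptides that other enzymes must finish. Aminopeptidases remove single residues from the N terminus, tripeptidyl and dipeptidyl peptidases remove short blocks, and oligopeptidases cut within short chains, so that most peptides end as free amino acids. A small share is carried into the endoplasmic reticulum and trimmed there to fit MHC class I molecules. In epidermis, bleomycin hydrolase is known for a further task: it finishes the breakdown of filaggrin, after calpain and caspase-14, into the amino acids that keep the outer layer moist.

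The knockout libraries held 21.6, 24.7 and 23.2 FPKM of STUB1 mRNA (fragments mapped, scaled by transcript length and by library size), against 37.8, 41.9 and 52.7 FPKM in control libraries. STUB1 thus stood at 52.5% of control with no overlap between the groups (log2 difference -0.89, SE 0.116; limma, Benjamini-Hochberg adjusted p = 0.00125), which checks the labels but does not measure the protein. Steps in the low FPKM values put the library sizes at 45400000 to 52500000 reads, as estimates, with 59.8% to 65.7% of low values within 0.15 of a whole read. Mitochondrially encoded transcripts made up 26.2% to 30.8% of FPKM in knockout libraries and 20.9% to 26.8% in control libraries. Control 3 stood apart, correlating with controls 1 and 2 across genes at 0.988 and 0.986, where the knockout libraries correlated with each other at 0.996 to 0.999. Of 18 keratinocyte markers 15 passed the filter of a mean of 1 FPKM, while KRT14, KRT16 and KRT17 averaged at most 0.454 FPKM in either group. The summed level of the keratinocyte markers was 1670 to 1770 FPKM in knockout libraries and 1450 to 1560 FPKM in control libraries, with 4 markers called higher and 1 lower; the part of this in the results below was not tested. Of 11 fibroblast, 7 melanocyte and 10 leukocyte markers, 1, 2 and 1 passed that filter. The fibroblast marker TWIST2 averaged 7.92 FPKM in the knockout and 6.65 FPKM in the control. The melanocyte markers PMEL and MITF averaged 5.38 and 1.6 FPKM in the knockout and 5.31 and 1.65 FPKM in the control. The leukocyte marker CD68 averaged 23.7 FPKM in the knockout and 21.5 FPKM in the control. DCN and TYR were at 0 in every library.

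Among the 10 genes, BLMH and NPEPPS both lie on chromosome 17, and LAP3, an interferon-inducible gene on chromosome 4, did not differ enough to be called. The stretch upstream of the transcription start of each is shown from RefSeq (GRCh38.p14), since BLMH had the largest difference, NPEPPS the next and LAP3 the only other lower value without overlap. Each line runs 5′ to 3′ on the strand of its gene and ends before the first annotated exon. Capitals mark matches, on either strand, to the GC box GGGCGG, the CCAAT box, the interferon response element (GAAA, any 2 bases, GAAA) or a heat shock element pair, GAANNTTC. The NPEPPS stretch lies within the annotated span of that gene.
BLMH, chr17:30292057-30292194, minus strand: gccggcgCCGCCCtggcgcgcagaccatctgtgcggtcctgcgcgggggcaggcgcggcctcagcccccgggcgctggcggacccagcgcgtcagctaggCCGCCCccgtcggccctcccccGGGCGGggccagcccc
NPEPPS, chr17:47530858-47531063, plus strand, the start with the more CG pairs of its 2 in RefSeq: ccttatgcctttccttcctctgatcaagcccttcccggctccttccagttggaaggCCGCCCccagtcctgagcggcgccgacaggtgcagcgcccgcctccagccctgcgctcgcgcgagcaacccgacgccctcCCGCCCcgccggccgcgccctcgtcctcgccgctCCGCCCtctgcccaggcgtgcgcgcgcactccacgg
LAP3, chr4:17576948-17577191, plus strand: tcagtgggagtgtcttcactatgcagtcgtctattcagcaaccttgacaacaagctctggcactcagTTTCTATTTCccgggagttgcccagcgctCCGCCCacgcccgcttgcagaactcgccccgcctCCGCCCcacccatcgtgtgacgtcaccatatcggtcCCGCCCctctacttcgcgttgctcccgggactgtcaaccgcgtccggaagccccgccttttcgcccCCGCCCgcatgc

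The BLMH stretch was the richest in G and C, at 84.1%, against 74.3% for NPEPPS and 63.1% for LAP3. These shares come from unlike windows of 138, 206 and 244 bases, and the NPEPPS start was picked for its CG pairs. All 3 held GC boxes, a match found in the 250 bases before 42.6% of 35116 RefSeq starts, and 7 of the 10 genes had one. The interferon response element, present before 3.02% of starts, was found for LAP3 and ERAP2. The CCAAT box, at 32.0% of starts, was found for 5 of the 10 genes, though in none of the 3 stretches shown, and the heat shock pair, at 5.78%, for 0 of 10. For each motif the share is over single starts, while a gene was counted if any of its starts matched, so they are unlike measures. The motifs did not overlap one another in these lines, and a match is only a run of letters, not a site shown to be bound.

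All 10 genes passed the filter on low values. BLMH held 4.39, 4.47 and 4.11 FPKM in the knockout libraries, against 15.6, 14.9 and 17.1 FPKM in the control libraries. Its highest knockout value lay far under its lowest control value. BLMH, a cytosolic cysteine aminopeptidase named for inactivating the drug bleomycin, averaged 4.32 ± 0.19 FPKM in the knockout and 15.9 ± 1.13 FPKM in the control (SD, n = 3 each), 27.2% of control or 3.67-fold lower. On the log2(FPKM + 1) scale the difference was -1.66 (SE 0.0777), and only 4 of 11262 tested genes had a lower one. That scale understates the change of low genes: with a pseudocount of 0.1 the difference was -1.85. Knockout minus control libraries of the same number gave -1.62, -1.54 and -1.83. In bulk RNA, fewer cells that express a gene and less RNA per cell cannot be told apart.

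**Figure D1:**
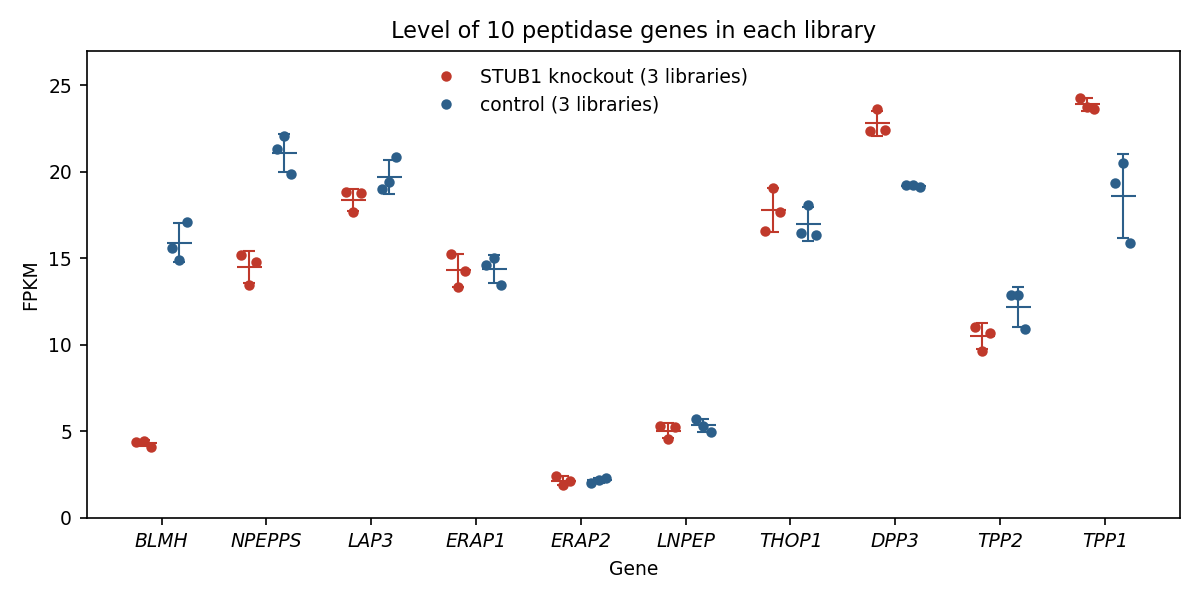
FPKM (vertical axis) of the 10 peptidase genes (horizontal axis) in each of 3 STUB1 knockout and 3 control libraries; points are libraries, and bars give the mean and SD of 3. BLMH sits at 4.11 to 4.47 FPKM in the knockout and at 14.9 to 17.1 FPKM in the control, while the groups overlap for ERAP1, ERAP2, LNPEP, THOP1 and TPP2.

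NPEPPS held 15.2, 13.5 and 14.8 FPKM in the knockout libraries, against 21.3, 22.1 and 19.9 FPKM in the control libraries. The groups did not overlap here either. NPEPPS, the puromycin-sensitive aminopeptidase and a main trimmer of peptides in the cytosol, averaged 14.5 ± 0.903 and 21.1 ± 1.11 FPKM (SD, n = 3 each), 68.6% of control, with a log2 difference of -0.51 (SE 0.077). LAP3, leucine aminopeptidase, held 18.8, 17.7 and 18.8 FPKM in the knockout, against 19.0, 19.4 and 20.8 FPKM in the control. Its groups lay side by side without overlap, at 93.4% of control (log2 difference -0.09, SE 0.071), and it was not called.

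The aminopeptidases outside the cytosol had overlapping levels in knockout and control cells, and none was called. ERAP1, which trims class I precursors in the endoplasmic reticulum, held 15.3, 13.4 and 14.3 FPKM in the knockout, against 14.6, 15.0 and 13.5 FPKM in the control. ERAP2, its partner with another residue preference, held 2.43, 1.90 and 2.14 FPKM against 1.99, 2.21 and 2.29 FPKM in the control. LNPEP, an endosomal aminopeptidase that also cleaves oxytocin, held 5.33, 4.55 and 5.23 FPKM against 5.74, 5.31 and 4.97 FPKM in the control. All 3 groups of values overlapped, with log2 differences of -0.01 (SE 0.0786), -0.01 (SE 0.0816) and -0.07 (SE 0.0835). The 3 genes lie one after the other on chromosome 5, and 299 exonic bases of ERAP1 are shared with CAST on the opposite strand, at 46.5 FPKM, so without a stated strand setting those reads cannot be told apart. Other genes on the opposite strand share 436 exonic bases of NPEPPS (3.79%) and 416 of LNPEP (2.73%), among others. On the same strand, TPP1 shares 756 exonic bases (11.6%) and DPP3 236 (5.93%) with another gene. Strand cannot separate those reads under any setting.

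The enzymes that remove 2 or 3 residues at a time differed in direction. TPP1, a lysosomal tripeptidyl peptidase whose loss causes a childhood neurodegenerative disease, held 24.3, 23.8 and 23.6 FPKM in the knockout, against 19.4, 20.5 and 15.9 FPKM in the control. DPP3, a cytosolic dipeptidyl peptidase, held 22.4, 23.6 and 22.4 FPKM against 19.2, 19.2 and 19.1 FPKM in the control. Neither overlapped, at 129% and 119% of control, with log2 differences of 0.35 (SE 0.0953) and 0.24 (SE 0.0657). TPP2, a very large cytosolic tripeptidyl peptidase, held 11.1, 9.62 and 10.7 FPKM in the knockout, against 12.9, 12.9 and 10.9 FPKM in the control. Its groups overlapped through control 3, which was the lowest control library for both TPP2 and TPP1 (log2 difference for TPP2 -0.20, SE 0.0893). Control 3 was also the lowest control library for NPEPPS, ERAP1, LNPEP, DPP3 and THOP1, and the highest for BLMH, LAP3 and ERAP2. Without control 3 the log2 difference of TPP1 was 0.25, and TPP1 was still called. THOP1, an oligopeptidase that destroys short cytosolic peptides, held 16.6, 19.1 and 17.7 FPKM in the knockout and 16.4, 18.1 and 16.3 FPKM in the control, with overlap (log2 difference 0.06, SE 0.0793).

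Counted over the list, 4 of the 10 genes were among those called by limma over all tested genes (Benjamini-Hochberg adjusted p under 0.05), BLMH and NPEPPS lower and TPP1 and DPP3 higher. Of all 11262 tested genes 22.9% were called, 9.58% higher and 13.3% lower. The split over all genes was 667 higher and 1622 lower after rescaling every library to TPM and 973 higher and 1015 lower after rescaling without mitochondrially encoded genes, against 1079 and 1500 on the FPKM scale. The groups did not overlap for 5 of the 10, the 4 called genes and LAP3, where 45.6% of all tested genes were without overlap. Of the 5, TPP1 and DPP3 lay above control, as did 20.4% of all tested genes, and 3 lay below, as did 25.3%. The median log2 difference was -0.04 over the 10 genes and -0.01 over all tested genes. Since the choice of genes used this comparison, nothing is read from these counts.

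The calls of BLMH and NPEPPS were kept under all 16 alternatives, with log2 differences of -1.85 to -1.61 and -0.57 to -0.38. TPP1 and DPP3 were less settled. TPP1 was called under 9 of 16 alternatives and left the called genes without any 1 knockout library (log2 differences 0.34, 0.36 and 0.36 without knockout 1, 2 and 3) or without control 1 (0.39). It was also not called with no filter on low values (0.35), on the TPM scale (0.32) or after rescaling without mitochondrially encoded genes (0.40). DPP3 was called under 8 of 16 and left them without any 1 knockout library (0.25, 0.21 and 0.25) and without control 1 or control 2 (0.24 each). DPP3 was also not called on the TPM scale (0.20) or after a correction for GC content and transcript length, with or without the replicate block (0.13). THOP1, the most GC-rich of the 10 at 63.1%, turned to -0.16 and was called with that correction, though not with the replicate block added. TPP2 was called at -0.28 without control 3 and at -0.24 with array weights, and at no other setting. LAP3, ERAP1, ERAP2 and LNPEP were called under none of the alternatives run.

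**Figure D2:**
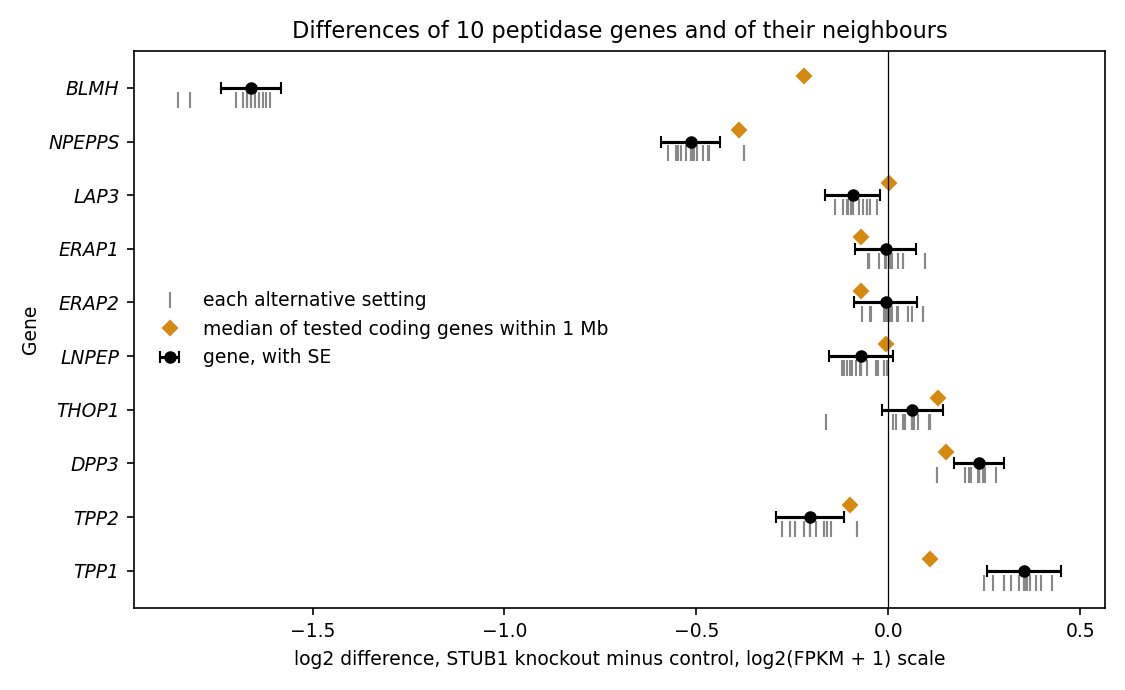
Difference between STUB1 knockout and control (horizontal axis, log2(FPKM + 1) scale) for each gene (vertical axis): black points with SE for the gene, grey ticks for the alternative settings and diamonds for the median of tested coding genes within 1 Mb. BLMH lies at -1.66 with its neighbours' median at -0.22, whereas NPEPPS at -0.51 is close to its neighbours' -0.39. ERAP1, ERAP2 and LNPEP count among each other's neighbours.

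BLMH lies on chromosome 17 at 30248195 to 30292056 (GRCh38, GENCODE 29), on the minus strand. Of 690 tested genes of chromosome 17, 83.0% had a difference below 0, against 51.8% of all tested genes, and the part of this in the BLMH and NPEPPS values was not tested. Within 1 Mb of the BLMH start 16 other coding genes were tested. Of these 6 fell and 10 did not pass: NUFIP2 (-0.45), NSRP1 (-0.37), CPD (-0.32), CRLF3 (-0.48), ATAD5 (-0.37) and TEFM (-0.36) were lower on the log2 scale (limma, Benjamini-Hochberg adjusted p of 0.00205 to 0.021). TAOK1 had -0.26, ANKRD13B -0.25, GOSR1 -0.20, NF1 -0.18, GIT1 -0.16, SSH2 -0.11, RNF135 -0.08, ABHD15 -0.05, TP53I13 0.01 and CORO6 0.11. The median was -0.22, which left BLMH 1.44 log2 units under it, and no gene among 69 within 5 Mb was lower than CRLF3 at -0.48. BLMH stood outside the range of its surroundings by values alone and with no test. It was chosen for its large fall in this comparison, so its place under its neighbours follows largely from that choice.

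NPEPPS, at 47522942 to 47623276 on the plus strand of the same chromosome, did not stand apart in this way. Of 16 tested coding neighbours within 1 Mb, 11 fell and 1 rose, with a median of -0.39. NSF (-0.59), CBX1 (-0.55) and CDC27 (-0.53) were lower than NPEPPS itself, which lay 0.13 log2 units under the median. Within 5 Mb 92.0% of 112 neighbours were below 0, and 21 were lower than NPEPPS.

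**Figure D3:**
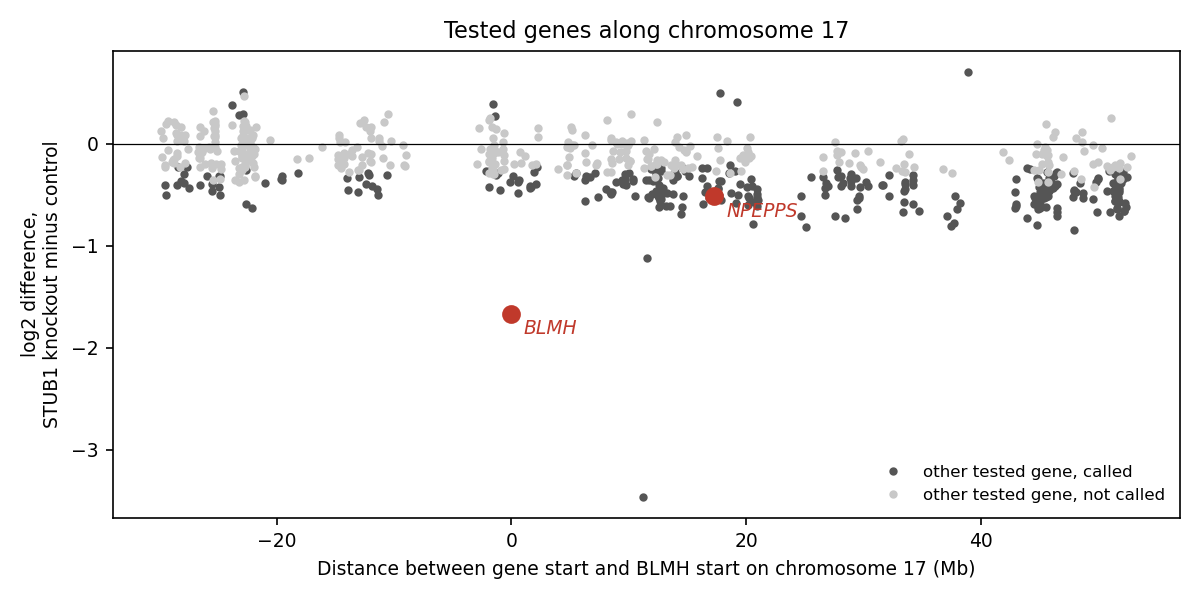
Log2 difference between STUB1 knockout and control (vertical axis) of tested genes on chromosome 17 by distance of their start from that of BLMH (horizontal axis, Mb), with called genes in dark grey. Most points lie under 0 and NPEPPS lies among them at -0.51, while BLMH lies at -1.66, under all tested neighbours within 5 Mb; 1 gene farther away lies lower still.

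Around the other 8 genes the medians within 1 Mb were smaller. DPP3, on chromosome 11 at 66480013 to 66509657, had 62 tested neighbours with a median of 0.15, of which 12 rose and 1 fell, and 44 of them were lower than DPP3. Of those that rose, 1 (0.29) starts within the span of DPP3. TPP1, on the same chromosome at 6612763 to 6619485, had 16 neighbours with a median of 0.11, and 14 of them were lower than TPP1. THOP1, on chromosome 19, had 41 neighbours with a median of 0.13. The neighbours of LAP3 (5 genes), ERAP1 and ERAP2 (5 each), LNPEP (4) and TPP2 (5) had medians of 0.00, -0.07, -0.07, -0.01 and -0.10, so these values rest on few genes. ERAP1, ERAP2 and LNPEP were counted among each other's neighbours. The median for ERAP1 and for ERAP2 is the LNPEP value itself, and that for LNPEP lies between the values of ERAP1 and ERAP2. Overlapping entries, such as RBM14-RBM4 around DPP3 and BIVM-ERCC5 around TPP2, were counted as separate genes in every window.

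The order of levels differed between knockout and control cells. In knockout cells the order, by mean FPKM, was TPP1 (23.9), DPP3 (22.8), LAP3 (18.4), THOP1 (17.8), NPEPPS (14.5), ERAP1 (14.3), TPP2 (10.5), LNPEP (5.04), BLMH (4.32) and ERAP2 (2.15). In control cells it was NPEPPS (21.1), LAP3 (19.7), DPP3 (19.2), TPP1 (18.6), THOP1 (17), BLMH (15.9), ERAP1 (14.4), TPP2 (12.2), LNPEP (5.34) and ERAP2 (2.16). Neighbours in the order overlapped in range for TPP1 and DPP3, LAP3 and THOP1, and NPEPPS and ERAP1 in the knockout, and for every step from NPEPPS down to ERAP1 in the control. BLMH ranked 9 of 10 in every knockout library and 6, 7 and 4 in the control libraries, while NPEPPS ranked 6, 5 and 5 in the knockout and 1, 1 and 2 in the control.

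BLMH made up 3.23%, 3.40% and 3.07% of the summed FPKM of the 10 genes in the knockout libraries, against 10.7%, 9.97% and 12.2% in the control libraries. The sum was 134 ± 2.10 FPKM in the knockout and 146 ± 4.45 FPKM in the control (SD, n = 3 each). Without BLMH the sums were 129 ± 2.15 and 130 ± 5.57 FPKM, a gap smaller than either spread. Opposite changes enter these sums, so they do not show that the single genes were unchanged. NPEPPS averaged 14.5 FPKM in the knockout and 21.1 FPKM in the control, while TPP1 averaged 23.9 and 18.6 FPKM and DPP3 22.8 and 19.2 FPKM. Relative to NPEPPS in the same library, which cancels any scaling of that library, BLMH stood at 0.289, 0.332 and 0.278 in the knockout and at 0.731, 0.676 and 0.860 in the control. By estimate 660 to 13170 reads lay behind each FPKM value of a gene, the fewest for ERAP2, and at least 1060 for BLMH. LAP3 and DPP3 each have 2 processed pseudogenes in GENCODE 29 that could share their reads.

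By the distance between centred log2 profiles over the 6 libraries, the genes most like BLMH among all with a mean of at least 5 FPKM were ANXA10 and CALB2, at root mean square distances of 0.0612 and 0.0639. ANXA10, an annexin, averaged 44.6 FPKM in the knockout and 141 FPKM in the control, and CALB2, the calcium-binding protein calretinin, 7.32 and 23.8 FPKM. FABP5 (0.264), NT5C3B (0.273) and CCNC (0.318) followed at a greater distance. These 5 genes lie on 5 chromosomes, and only NT5C3B shares chromosome 17 with BLMH. Among the closest to NPEPPS were RBL2 (0.0228) and CBX1 (0.0251), and CBX1 is one of its neighbours within 1 Mb. The closest to TPP1 were CPT1A, IGF1R and CORO2A, to DPP3 ZYX, MANEAL and MYBL2, and to TPP2 MET, KIF3A and the oligopeptidase gene NLN. For LAP3 they were LDHA, RAB21 and UGT1A1, for ERAP1 ATR, R3HCC1L and IFI16, for LNPEP VPS13A, GALNT7 and ACTR2, and for THOP1 ARMC6, GTF2F1 and FOXRED1.

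Other peptidases of the cytosol and mitochondria moved in both directions. Of 26 tested, 6 rose, 3 fell and 17 did not pass, with a median log2 difference of 0.03. Over all tested genes 22.9% were called, 9.58% higher and 13.3% lower, with a median of -0.01. The share called was 34.6% in this list. In the lists below it was 15.4% (lysosomal), 60% (membrane and secreted), 29.4% (20S proteasome), 7.14% (class I loading) and 60% (filaggrin processing). All lists were chosen with earlier results known, so nothing is read from these shares. PREP, which cuts short peptides after proline, fell to 5.29 ± 0.0767 FPKM in the knockout, against 7.29 ± 0.235 FPKM in the control (log2 difference -0.40; limma, Benjamini-Hochberg adjusted p = 0.00422). AOPEP, NPEPL1 and APEH rose by 0.44, 0.38 and 0.26 (adjusted p = 0.0097, 0.0164 and 0.0229, limma); APEH frees acetylated residues from peptides. AOPEP lost its call after the GC and length correction alone, at 0.35 (0.0763). NPEPL1 lost its call without knockout 2 (adjusted p = 0.0813), knockout 3 (0.0554) or control 1 (0.0635), and after the GC and length correction its value was 0.15 (0.16). APEH had 0.13 after the GC and length correction with the replicate block and was not called (0.0874). It also lost its call on the TPM scale (0.0822) and without knockout 1 (0.0713), knockout 2 (0.0782), knockout 3 (0.102) or control 1 (0.0861). The count of 9 calls became 3, 2 and 2 without knockout 1, 2 and 3 and 2 without control 1, and was 3 after the GC and length correction.

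Lysosomal peptidases, the company of TPP1, held 1 higher and 1 lower gene among 13 tested, with a median of -0.04. CTSB, cathepsin B, rose to 43.3 ± 0.555 FPKM in the knockout, against 27 ± 0.587 FPKM in the control (log2 difference 0.66; limma, adjusted p = 0.000336). SCPEP1, a serine carboxypeptidase, fell to 14.0 ± 0.651 FPKM, against 20.2 ± 1.21 FPKM in the control (-0.50; adjusted p = 0.00222), and both calls were kept under all 16 alternatives. SCPEP1, like CPD, PSMB3 and PSMB6 below, lies on chromosome 17. With the replicate block CTSD (0.25, adjusted p = 0.0482) and CTSV (0.28, adjusted p = 0.0297) were called as well, which made 4, and without control 3 there were 6. With GC and length corrected, 3 lysosomal genes rose and 4 fell. On the cell surface and in the secretory path only 5 of 19 peptidases passed the filter. Of these FURIN, a proprotein convertase, and ECE1 rose by 0.59 and 0.38 (adjusted p = 0.00385 and 0.046, limma), and CPD, a carboxypeptidase and neighbour of BLMH, fell by 0.32 (adjusted p = 0.021). The ECE1 call was lost under 10 of 16 alternatives, among them without any 1 knockout library or control 1 (adjusted p of 0.0573 to 0.183), and that of CPD without knockout 2 (0.0828), knockout 3 (0.0864) or control 1 (0.083). The count then was 1 without knockout 2, knockout 3 or control 1.

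Upstream of the 10 genes, 5 of 17 subunits of the 20S core proteasome fell and 12 did not pass, with a median of -0.24. PSMB1 fell to 126 ± 6.36 FPKM in the knockout, against 230 ± 41.0 FPKM in the control (log2 difference -0.85; limma, adjusted p = 0.00161), a call kept under all 16 alternatives. PSMA4, PSMB3 and PSMA3 fell by 0.33, 0.49 and 0.40 (adjusted p = 0.0336, 0.0357 and 0.0393, limma), and each lost its call without any 1 knockout library (adjusted p of 0.0748 to 0.157). PSMA4 and PSMA3 also lost it without control 1 (0.0733 and 0.0624), and PSMA3 had -0.14 after the GC and length correction (0.241). The summed FPKM of the subunits was 1800 to 1810 in knockout libraries, and 2010, 1970 and 2620 in controls 1, 2 and 3. Without control 3 there were 8 calls, 2 higher and 6 lower, without control 1 there were 3, and without any 1 knockout library 1. With GC and length corrected 3 were lower, and without the filter on low values 1 was called. With the replicate block PSMB6 was called as well (-0.35, adjusted p = 0.0439), which made 6.

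Downstream, on the path that ERAP1 and ERAP2 serve, 14 genes of peptide transport and class I loading were tested and 13 did not pass, with a median of 0.11. CALR, the chaperone calreticulin, rose to 317 ± 18.7 FPKM in the knockout, against 261 ± 8.02 FPKM in the control (log2 difference 0.28; limma, adjusted p = 0.0355). That call was lost without any 1 knockout library or without control 1 or 2 (adjusted p of 0.0577 to 0.165) and on the TPM scale (0.0593). With the replicate block TAPBP, tapasin, was called too (0.23, adjusted p = 0.0494), and without control 3 there were 6 calls, all higher.

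**Figure D4:**
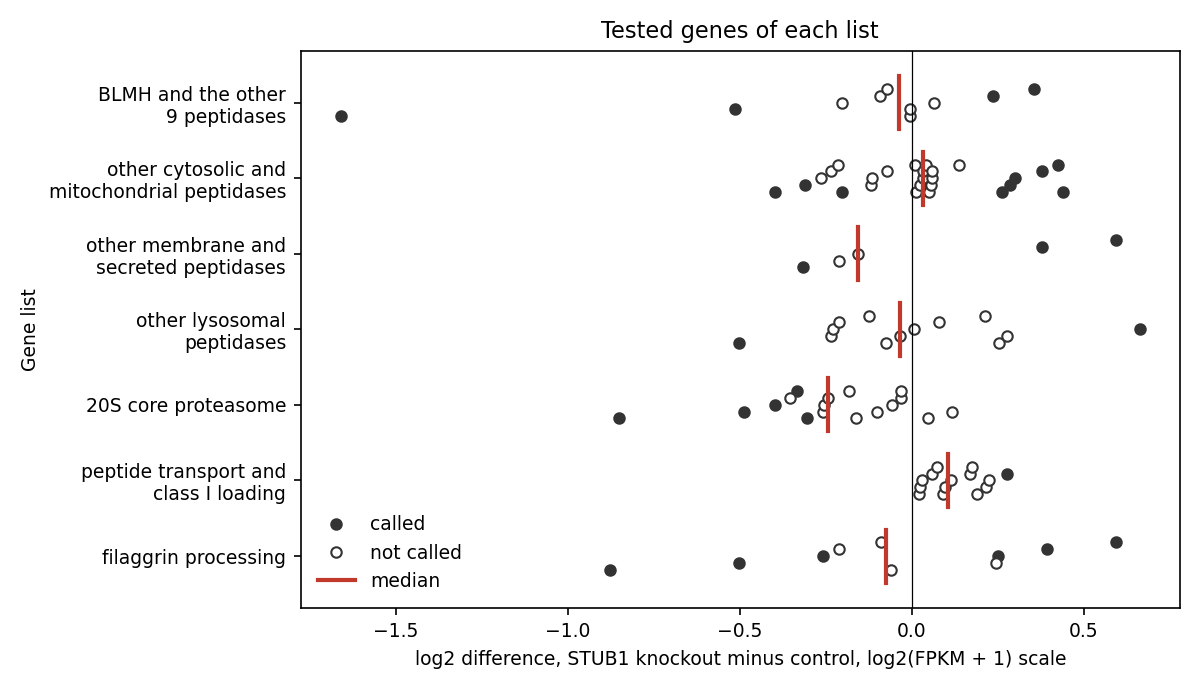
Log2 difference between STUB1 knockout and control (horizontal axis) of each tested gene in the list of 10 peptidases and in 6 further lists (vertical axis); filled points were called, and red bars are list medians. BLMH at -1.66 lies lower than any gene of the other lists, of which PSMB1 at -0.85 and KLK5 at -0.88 come next.

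In filaggrin processing, the epidermal setting of BLMH, 10 of 18 genes passed the filter. FLG itself averaged 0.0583 FPKM in the knockout and 0.0590 FPKM in the control, and CASP14 0.0040 and 0.00867 FPKM; these 2 were chosen after their values were seen. Calls were made for 6, 3 in each direction, against 4 not called, and the median was -0.08. CAPN1, the calpain that acts before BLMH, rose to 100 ± 5.12 FPKM in the knockout, against 76.1 ± 4.81 FPKM in the control (log2 difference 0.39; limma, adjusted p = 0.00832). FURIN, which cuts profilaggrin, is the gene already given. KLK5, a kallikrein protease, fell to 3.59 ± 0.334 FPKM, against 7.43 ± 0.549 FPKM in the control (-0.88; adjusted p = 0.000308). SPINK5, the inhibitor of that protease, fell to 0.967 ± 0.0201 FPKM, against 1.79 ± 0.0984 FPKM in the control (-0.50; adjusted p = 0.000977). Its knockout values (0.965, 0.948 and 0.988 FPKM) were all under the filter of 1 FPKM. SPINK5 thus passed that filter only through its control values, and its levels lie near the floor. The calls of CAPN1, FURIN, KLK5 and SPINK5 were kept in every alternative that tested them.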

How the data were processed

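RNA of 3 STUB1 knockout and 3 control HaCaT libraries was analysed from 1 table of FPKM values that the authors deposited, rounded to 3 decimals. GRCh38.p13 is the build in the submitters' processing notes, which list as tools, with no roles, Cufflinks, edgeR 3.6.3, featureCounts 1.6.3, HISAT2 2.0.5 and Trimmomatic 0.36. The annotation, the strand setting and any scaling across libraries were not given in the sources used here. FPKM is no count, so no count test was run, and read numbers are estimates; no counting interval was computed. Symbols were found for 19991 of 20014 identifiers in a table of Ensembl names, and 19873 had coordinates, length and GC content in GENCODE 29.

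Genes with a mean of at least 1 FPKM (11262) were fitted on log2(FPKM + 1), pseudocount 1, with limma 3.58.1 in R 4.3.3, genotype as the sole term, a trended prior and Benjamini-Hochberg adjustment at 0.05 over all of them; the script was tested on simulated data. SE is that of this fit. An exact permutation test of 3 against 3 cannot go under 0.1. Same-numbered libraries deviated together across genes (correlations 0.375, 0.150 and 0.188, all over 0.1), and libraries of unlike number gave -0.31 to 0.0665. Deviations from a mean of 3 are tied to one another, so these correlations are not independent. The numbers were taken as possible pairs, and the replicate block was run only as an alternative. The main calls therefore ignore any pairing (2579 genes, against 3051 with the block). Other alternatives were a pseudocount of 0.1, no filter or a minimum of 5 FPKM, TPM, rescaling without mitochondrial genes, median centring, array weights, a loess correction for GC content and length, and leaving out each library. Named were the 10 genes, BLMH and its tested neighbours, STUB1, the closest profiles (some items are not reported here), and up to 4 called genes per list with the smallest p. The 10 genes and all lists were chosen with earlier results of these data known. Python 3.11.15, pandas 2.3.3, numpy 2.4.6 and matplotlib 3.10.9 were used.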

Additional observations from a re-analysis of the deposited data

How the results depend on the processing

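The number of genes called over the whole table was 2579 and went to 6437 with array weights, whose estimation stopped before convergence and which gave control 3 a weight of 0.123, and to between 1030 and 4521 when 1 library was left out. The 10 peptidases held 4 calls, 2 on the TPM scale (BLMH and NPEPPS), and 2 to 5 without 1 library. The 6 further lists together held 25 called genes, 52 with array weights and 9 to 42 without 1 library. The BLMH difference of -1.66 was -1.85 with a pseudocount of 0.1 and -1.82 on the TPM scale, and lay between -1.70 and -1.61 without 1 library. With the replicate block it was -1.66, and the block changed the call of none of the 10 genes. For the 9 other genes, 13 of 143 values under an alternative moved by at least the SD between replicates, and none of the 4 called genes changed sign. THOP1, not called at 0.06, was called at -0.16 with the GC and length correction. Higher genes made up 41.8% of all calls, 29.1% on the TPM scale, 48.9% after rescaling without mitochondrially encoded genes and 48.8% with the GC and length correction; the cause was not tested. A minimum of 5 FPKM left out ERAP2. Depth is an estimate, so counting error is not given; a further limit is 3 libraries a group of unstated origin.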
